A study of Arabidopsis thaliana with 27 samples.

Results

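The comparison described here is that of wild-type Arabidopsis thaliana leaves held in clean air and harvested at 2 d, against wild-type leaves held in clean air and harvested at 3 h. Its members were chosen by their titles, which give the Columbia genotype (Col-0), clean air and the sampling time, and they were 4 arrays at 2 d and 3 arrays at 3 h, 7 of the 27 arrays of the series. The series as a whole set ozone against clean air in wild type and in the double mutant gpa1-4/agb1-2, a G-protein null line. Every array held total RNA of mid-whorl leaves, hybridised to the Affymetrix ATH1 array, on which a probe set of short oligonucleotides reports 1 transcript or several related ones. Per the labels' protocols, plants of all groups were grown for 4 to 5 weeks under 9 h of light and 15 h of dark, then moved to 4 chambers at 24 degrees C. There they had either clean air, which held 5 ppb ozone, or 125 ppb ozone for 7 h of each day. The time change in clean air is set beside 2 others that share no array with it, the change of the mutant in clean air (3 arrays at 2 d and 3 at 3 h) and the change of wild type in ozone (4 arrays at 2 d and 3 at 3 h).

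No ozone was added in this comparison, so it shows what differed between the harvests without the treatment. The labels give the time since the start of treatment but not the hour of the day at which leaves were taken. Days spent in the chamber, leaf age and hour of harvest cannot be told apart, and arrays are not tied to chambers. The labels call the replicates biological and do not say how many plants went into 1 array, so p-values measure the spread between these arrays.

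As background, a leaf's transcripts follow the time of day through light and through the circadian clock, a loop of transcription factors that repress each other in turn. In the light a leaf fixes carbon, exports sucrose and stores starch in its chloroplasts, and in the dark it breaks that starch down. When sugar runs short, the kinase SnRK1 and autophagy, the delivery of cell contents to the vacuole, favour breakdown over growth. Growth itself needs the wall to be loosened and rebuilt, and flavonoids, which screen light, are made and given sugar groups in lit leaves.

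Values below are log2(intensity + 1) for single arrays and group means. A change is the 2 d mean minus the 3 h mean on that scale, with its standard error (SE). For dim transcripts the added 1, the pseudocount, shrinks the ratio of intensities, which near the floor may itself be noise. The size of a dim change therefore depends on the pseudocount. Replicate arrays correlated across probe sets at 0.948 to 0.964 at 2 d and at 0.944 to 0.954 at 3 h, and the median standard deviation (SD) over arrays was 0.34 at 2 d and 0.30 at 3 h. Replicate 3 of 2 d had a median intensity of 153.5, against 173.9 to 175.85 in the other 2 d arrays and 173.1 to 176.75 at 3 h. RCA, which encodes rubisco activase and was the measured member of a list of 15 leaf markers, stood at 14.17 to 14.37 at 2 d and at 14.24 to 14.74 at 3 h, within the top percentile of every array. The 3 measured root markers of 10 lay below the median of every array, and none of them, nor the guard cell gene FMA, passed the test. No listed marker of flowers or seeds was matched by name to a probe set. Of 5 listed pollen markers VEX1 has a probe set, as AtVEX1 among the SWEET genes, but it was not examined as a marker.

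Of 22746 probe sets, 2273 passed an adjusted p of 0.05 in limma, a linear model for arrays that shares information on the spread across probe sets, or 9.99%. Of these, 1039 were higher at 2 d (4.57% of those tested) and 1234 were lower (5.43%). Counts of list members below are to be read beside these shares, and counts near them do not set a list apart. The median change was 1.26 among those higher and −1.26 among those lower, against −0.095 over all probe sets. Changes of at least 2 on the log2 scale were called for 227 probe sets that rose and 266 that fell. The 4 and the 3 arrays did not overlap for 5619 probe sets (24.7%), and for 2189 of the 2273 called. Fewer were called without 3 h replicate 1 (1475) or without 3 h replicate 2 (1370), and 968 of the calls held whichever of the 7 arrays was left out. A gene name could be given to 1155 of the called probe sets.

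The largest rise was that of COR27, a cold-regulated gene whose protein is also known to act in the circadian clock. COR27 stood at 11.17, 11.17, 11.99 and 11.29 at 2 d, against 4.65, 2.32 and 3.93 at 3 h. It was among the bright transcripts on every 2 d array and near the bottom of the range on the 3 h arrays, with a change of 7.77 ± 0.45 (SE, adjusted p = 4.83e-10). AT4G33980 rose by 6.66 ± 0.772, with 9.24 to 11.51 at 2 d and 1.93 to 5.33 at 3 h. AT3G15630 rose by 6.11 ± 0.738, AT1G17665 by 5.41 ± 0.508 and AT3G59350 by 5.28 ± 0.421. BZIP61, a basic leucine zipper transcription factor gene, rose by 5.06 ± 0.93 (adjusted p = 0.00104). Its arrays read 9.13, 8.62, 8.07 and 7.36 at 2 d, against 2.51, 1.59 and 5.60 at 3 h, so that 1 of the 3 h arrays stood well above the others. AT4G21870, AT5G62360, AT2G23910, AT4G28085, EXO and AT3G23550 made up the rest of the 12 largest rises of named genes, with changes of 3.73 to 4.75. For 9 of the 12 the tables used here give a locus and no further name. Several of these rises start from dim 3 h values, and with a pseudocount of 16 the change of COR27 was 6.56, that of AT4G33980 was 5.23, that of AT3G15630 was 5.41, that of AT1G17665 was 4.18 and that of BZIP61 was 3.53. AT2G23910 and AT4G28085 then changed by 2.86 and 3.0, against 3.94 and 3.82 with the pseudocount of 1.

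The largest fall was that of AT2G15020. It read 2.41, 2.04, 2.29 and 1.49 at 2 d, against 9.28, 9.79 and 9.64 at 3 h, a change of −7.52 ± 0.752 (adjusted p = 1.24e-06). Its 2 d values lay near the bottom of the range, where the size of a change depends on the pseudocount. With a pseudocount of 16, which compresses dim values more than 1 does, the change was −5.33. CSLA01, of the cellulose synthase-like family whose A members make mannans of the wall, read 6.42, 6.0, 8.44 and 6.03 at 2 d, against 11.42, 11.65 and 11.88 at 3 h. It fell by 4.93 ± 0.953 (adjusted p = 0.00166), and replicate 3 was the highest of its 2 d arrays. CYP71B26, a cytochrome P450 gene, read 6.51 to 8.24 at 2 d and 11.42 to 11.66 at 3 h, a change of −4.31 ± 0.566. TBL26, of a family that adds acetyl groups to wall polysaccharides, had 9.39, 9.10, 9.28 and 9.05 at 2 d, against 13.04, 13.00 and 13.51 at 3 h. The SD of TBL26 was 0.159 and 0.285 in the 2 groups, and its change was −3.98 ± 0.433 (adjusted p = 3.27e-06).

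The other 8 of the 12 largest falls carry a locus only, AT1G13650, AT3G46370, AT2G22200, AT5G66740, AT5G35970, AT3G14395, AT3G42500 and AT2G27420, with changes of −4.91 to −3.82. AT3G46370 kept its call without 2 d replicate 3 but lost it without any 1 of the other arrays (adjusted p = 0.0689 to 0.0978), and AT3G14395 lost it without 3 h replicate 1 (adjusted p = 0.071). For 5 of these 8 falls dim values weigh on the size. With a pseudocount of 16 the change of AT3G42500 was −1.22 instead of −3.84, that of AT3G14395 was −2.21 instead of −3.85, and that of AT5G66740 was −2.66 instead of −4.10. That of AT3G46370 was −3.11 instead of −4.50 and that of AT2G22200 was −3.12 instead of −4.16.

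**Figure D1:**
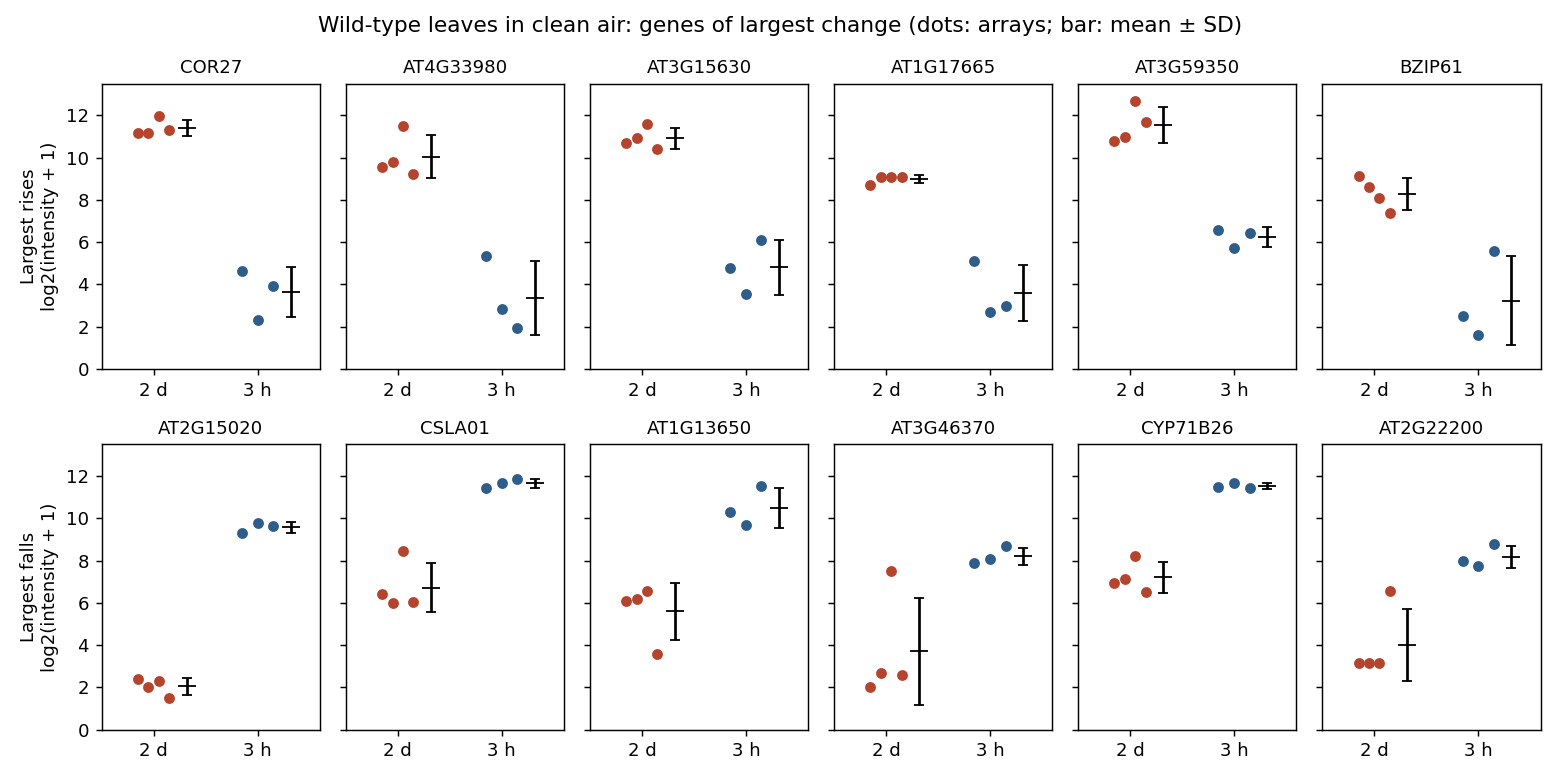
Values of single arrays, as log2(intensity + 1), for the 6 largest rises (upper row) and the 6 largest falls (lower row) of named genes in wild-type leaves in clean air, with 4 arrays at 2 d in red and 3 at 3 h in blue. Bars give the mean ± SD. The groups do not overlap for any of the 12 genes, and the COR27 arrays stand at 11.17 to 11.99 at 2 d against 2.32 to 4.65 at 3 h.

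Of 31 genes listed for the evening phase of the clock 3 could be measured, beside XCT, and none of these 4 genes passed the test. Most genes of the clock are thus not covered, and COR27 was not on these lists. GI, which encodes the evening-phased clock protein GIGANTEA, read 8.56, 9.81, 10.65 and 9.89 at 2 d, against 9.69, 9.57 and 9.45 at 3 h. The 2 d arrays of GI lay on both sides of the 3 h arrays, with a change of 0.16 ± 0.332 (adjusted p = 0.82). TIC, FIO1 and XCT, genes known from mutants with an altered clock period or amplitude, changed by 0.24 ± 0.301, 0.08 ± 0.285 and 0.47 ± 0.295, and their groups overlapped. No member of the list of morning-phased clock genes had a probe set of 1 named gene, so those genes are not analysed here. Of 3 measured genes of light signalling, of 60 listed, 1 fell. This was HYH, the homologue of the light-response factor HY5, with 5.94, 5.91, 5.01 and 6.2 at 2 d against 8.67, 8.46 and 8.14 at 3 h, a change of −2.66 ± 0.45 (adjusted p = 0.000481).

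Besides COR27, the cold and dehydration list held COR15B, which encodes a cold-regulated chloroplast protein, and STZ, a zinc-finger repressor gene also called ZAT10. Of its 9 measured members, of 77 listed, 3 rose and none fell, with a median of 1.14. The other 6, COR15A and COR47 among them, did not pass. Of the 9 members 3 had a change below 0, the lowest at −0.82. COR15B stood at 12.58 to 13.76 at 2 d and at 11.19 to 12.14 at 3 h and rose by 1.41 ± 0.356. STZ rose by 2.07 ± 0.648 (adjusted p = 0.0454). The call of COR15B was lost without 3 h replicate 3 (adjusted p = 0.089), and that of STZ without any 1 of the 7 arrays (adjusted p = 0.055 to 0.134). In a limma fit of only these 7 arrays STZ passed (adjusted p = 0.018) and COR15B did not (adjusted p = 0.0716).

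Among 5 measured genes of a list of 48 sugar starvation and dark-induced genes, 3 rose and none fell, with a median change of 1.84. AKINBETA1, which encodes a beta subunit of SnRK1, read 10.41, 10.13, 10.28 and 10.02 at 2 d, against 7.38, 6.75 and 7.36 at 3 h. All its 2 d arrays lay far above all its 3 h arrays, and the change was 3.05 ± 0.374 (adjusted p = 1.26e-05). MCCA encodes a subunit of methylcrotonyl-CoA carboxylase, an enzyme of leucine breakdown, and stood at 8.57, 8.17, 8.44 and 8.20 at 2 d against 5.52, 6.83 and 7.14 at 3 h. It rose by 1.84 ± 0.364 (adjusted p = 0.002). EXO, a gene of brassinosteroid-promoted growth, rose by 3.77 ± 0.993, with 2 d arrays scattered over 11.55, 9.27, 12.84 and 7.38 against 6.89, 6.18 and 6.4 at 3 h. Its call was lost without 2 d replicate 1 or 3 and without 3 h replicate 2 or 3 (adjusted p = 0.0558 to 0.0685). MCCB and IVD, which act beside MCCA in leucine breakdown, changed by 0.51 and −0.04 and did not pass.

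Of 9 genes of amino acid and ureide breakdown, 4 rose and 1 fell, with a median of 0.51. MCCA, MCCB and IVD, given above, are among the 9, so the rise of MCCA is counted in both lists. ASPGA1, an asparaginase gene, stood at 9.88 to 10.11 at 2 d and at 8.74 to 9.20 at 3 h and rose by 1.0 ± 0.135 (adjusted p = 3.67e-05). ALN, the gene of allantoinase, rose by 1.18 ± 0.316, and its call was lost without 2 d replicate 1 or 2 and without 3 h replicate 1 (adjusted p = 0.0521 to 0.131). MGL, which encodes methionine gamma-lyase, fell by 2.35 ± 0.75 (adjusted p = 0.0495). The call of MGL was lost in every run that left out 1 array but that without 2 d replicate 3 (adjusted p = 0.0519 to 0.219), and with a pseudocount of 16 its change was −1.48.

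Of 11 measured autophagy genes, of 51 listed, 3 rose and none fell, where 4.57% of all probe sets rose. Their median change was 0.41 with 4 members below 0, and the 3 that rose encode ATG8, the ubiquitin-like protein that is attached to autophagosome membranes. ATG8E read 10.18, 9.92, 10.30 and 9.60 at 2 d, against 6.39, 6.36 and 6.96 at 3 h, and rose by 3.43 ± 0.363 (adjusted p = 2.54e-06). ATG8H rose by 1.06 ± 0.29 and ATG8D by 0.97 ± 0.307. The call of ATG8H was lost without 2 d replicate 1 or 3 h replicate 1 (adjusted p = 0.0727 and 0.122), and that of ATG8D in every run that left out 1 array but that without 3 h replicate 1 (adjusted p = 0.0538 to 0.25). ATG8C, ATG8F, ATG8B and ATG8G did not pass, with changes of 0.21, 0.54, −0.34 and −0.30.

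Sugar transporters split. Of 19 measured SWEET and tonoplast sugar transporter genes 2 rose and 4 fell, with a median of −0.24. SWEET13, of the sucrose exporters of the plasma membrane, read 6.28, 6.48, 6.57 and 6.67 at 2 d, against 10.08, 10.78 and 9.63 at 3 h. Its 2 d arrays lay within a narrow band, and the change was −3.66 ± 0.4 (adjusted p = 3.4e-06). SWEET17, which encodes a fructose transporter of the vacuole membrane, fell by 1.64 ± 0.362, with 9.42 to 10.98 at 2 d and 11.88 to 12.03 at 3 h. The 2 tonoplast monosaccharide transporters TMT1 and TMT2, which load sugar into the vacuole, moved in opposite directions. TMT1 stood at 11.27, 11.11, 10.66 and 10.70 at 2 d against 9.01, 9.13 and 8.84 at 3 h and rose by 1.94 ± 0.272 (adjusted p = 5.86e-05). TMT2 stood at 7.91, 8.36, 9.53 and 9.15 at 2 d against 10.60, 10.48 and 9.78 at 3 h and fell by 1.55 ± 0.369 (adjusted p = 0.0088), a call that was lost without 3 h replicate 1 (adjusted p = 0.0531).

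In starch metabolism 1 of 7 measured genes, of 60 listed, rose and 1 fell, where 9.99% of all probe sets were called. PWD (AT5G26570), which encodes a dikinase that phosphorylates the starch granule ahead of its breakdown, stood at 12.22, 11.82, 11.97 and 11.91 at 2 d against 10.35, 9.92 and 10.30 at 3 h, a rise of 1.79 ± 0.241 (adjusted p = 3.66e-05). APL3, a gene for a large subunit of ADP-glucose pyrophosphorylase, the enzyme that commits carbon to starch, stood at 8.52 to 8.96 at 2 d and at 9.43 to 10.62 at 3 h and fell by 1.37 ± 0.286 (adjusted p = 0.00307). Among 12 genes of the tricarboxylic acid cycle and of cytochrome c, cICDH, for cytosolic isocitrate dehydrogenase, rose by 1.28 ± 0.207 and CYTC-2, for cytochrome c, fell by 1.53 ± 0.29. Of 11 measured genes of the NRT1/PTR transporter family, which carries nitrate and peptides, 3 fell and none rose. AT3G21670 (NPF6.4) fell by 3.30 ± 0.513, AT2G26690 (NPF6.2) by 1.74 ± 0.373 and AT1G59740 (NPF4.3) by 0.97 ± 0.191.

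**Figure D2:**
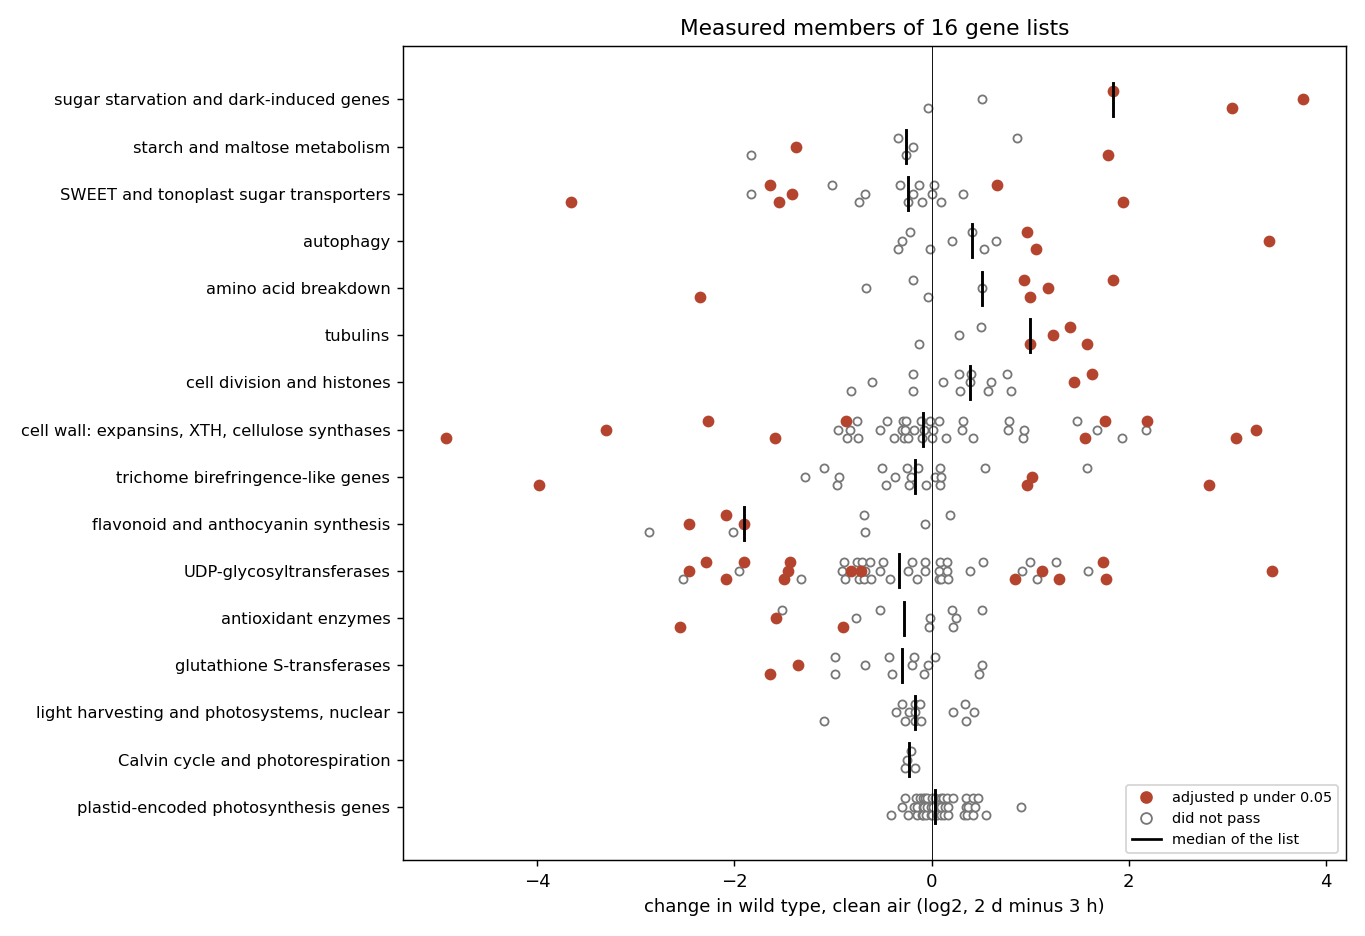
Change of each measured member of 16 gene lists in wild-type leaves in clean air, as log2 of 2 d minus 3 h, 1 dot per gene. Filled dots passed an adjusted p of 0.05, open dots did not, and the vertical bar is the median of the list. Filled dots lie on the right only for sugar starvation, autophagy, tubulins and the cell division list, and on the left only for flavonoids, antioxidant enzymes and glutathione S-transferases, while no photosynthesis list holds one.

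Genes of the cell wall changed in both directions. Of 44 measured expansin, xyloglucan endotransglucosylase and cellulose synthase family genes, of 211 listed, 5 rose and 5 fell, with a median of −0.089. Over all probe sets 9.99% were called. XTH33, a xyloglucan endotransglucosylase gene, read 8.04, 7.25, 8.69 and 6.26 at 2 d, against 4.27, 4.43 and 4.71 at 3 h, and rose by 3.09 ± 0.635 (adjusted p = 0.00278), or by 2.47 with a pseudocount of 16. EXPB1, a beta-expansin gene of wall loosening, read 5.06, 5.28, 3.61 and 5.80 at 2 d, against 8.03, 8.66 and 8.04 at 3 h, and fell by 3.31 ± 0.66 (adjusted p = 0.00219). EXLA1, an expansin-like gene, rose by 3.29 ± 0.869 with values spread from 8.57 to 12.75 at 2 d and from 4.66 to 7.91 at 3 h, and its call was lost without 2 d replicate 3 or 3 h replicate 2 (adjusted p = 0.0591 and 0.147). Among 22 TBL genes 3 rose and 1 fell. Beside the fall of TBL26, TBL45 rose by 2.82 ± 0.462, with 10.09 to 11.07 at 2 d and 7.60 to 8.19 at 3 h (adjusted p = 0.000341). TBL32 rose by 1.02 ± 0.29 and TBL38, whose groups overlapped, by 0.97 ± 0.293. Both lost their call in 5 of the 7 runs that left out 1 array (adjusted p = 0.0547 to 0.153 and 0.0692 to 0.172). Of 15 endoglucanase genes of glycoside hydrolase family 9, which trim wall glucans, 2 fell and 14 had a change below 0. Their median was −0.56, where the median over all probe sets was itself below 0, at −0.095. GH9C2 stood at 7.67 to 9.91 at 2 d and at 10.98 to 11.49 at 3 h and fell by 2.44 ± 0.5, and GH9B8 fell by 1.51 ± 0.436. The call of GH9B8 was kept only in the run that left out 2 d replicate 4 (otherwise adjusted p = 0.0602 to 0.102). In a limma fit of only the 7 arrays compared GH9B8 passed (adjusted p = 0.0177).

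Tubulins, the subunits of microtubules, were higher at 2 d where they passed. Of 7 measured members 4 rose and none fell, with a median of 1.0, and all 4 were beta-tubulins. TUB7 stood at 9.28 to 9.60 at 2 d and at 7.54 to 8.01 at 3 h and rose by 1.58 ± 0.344, and TUB9 stood at 11.24 to 11.85 at 2 d and at 10.37 to 10.78 at 3 h and rose by 1.0 ± 0.199. TUB1 rose by 1.41 ± 0.402 and TUB5 by 1.23 ± 0.364. The call of TUB1 was lost without 2 d replicate 1, 2 or 3 or 3 h replicate 1, and that of TUB5 in every run that left out 1 array but those without 2 d replicate 4 or 3 h replicate 3 (adjusted p = 0.0537 to 0.219 for TUB1 and 0.058 to 0.137 for TUB5). TUB6, TUA1 and TUA6 did not pass, at 0.28, −0.13 and 0.51. Beta-tubulins are close in sequence, and how far their probe sets take up each other's RNA was not tested. In the list of cell division and histones 2 of 15 measured genes, of 148 listed, rose. SIM, which encodes SIAMESE, an inhibitor of cyclin-dependent kinases that moves trichomes from division to repeated DNA replication, stood at 8.48 to 8.81 at 2 d and at 6.64 to 7.46 at 3 h and rose by 1.63 ± 0.306 (adjusted p = 0.00127). HTB2, a histone H2B gene, rose by 1.45 ± 0.372, a call that was lost without 3 h replicate 2 (adjusted p = 0.0909). TRY, an inhibitor of trichome formation and the measured member of 5 trichome markers, stood at 3.79 to 5.54 at 2 d and at 8.02 to 8.69 at 3 h, a change of −3.35 (adjusted p = 0.00152). In whole leaves, fewer cells of a type and less RNA per cell cannot be told apart.

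Among 9 measured genes of flavonoid and anthocyanin synthesis, of 56 listed, 3 fell and none rose, with a median of −1.90, and all 3 encode enzymes that add a sugar to a flavonoid. UGT78D2, a flavonoid glucosyltransferase gene, read 8.65, 8.41, 8.0 and 8.03 at 2 d, against 10.17, 10.92 and 9.97 at 3 h, and fell by 2.08 ± 0.353 (adjusted p = 0.000493). UGT78D1, a flavonol rhamnosyltransferase gene, fell by 1.90 ± 0.573 and UF3GT, which acts on anthocyanins, by 2.46 ± 0.763. The call of UGT78D1 held only in the run without 2 d replicate 1, and that of UF3GT only in those without 2 d replicate 3 or 3 h replicate 1 (otherwise adjusted p = 0.0522 to 0.12 and 0.0642 to 0.206). DFR and CHIL, which act before the sugar is added, stood lower without passing, at −2.01 and −2.86 (adjusted p = 0.24 and 0.16). Of 50 UDP-glycosyltransferase genes in all, which include these 3, 6 rose and 9 fell. IAGLU, the gene of an enzyme that conjugates auxin with glucose, read 7.05, 7.00, 6.83 and 7.02 at 2 d, against 9.12, 9.70 and 8.96 at 3 h, and fell by 2.29 ± 0.377 (adjusted p = 0.00036). UGT71B6, whose enzyme attaches glucose to abscisic acid, rose by 3.45 ± 0.707, or by 1.89 with a pseudocount of 16, since its 3 h values were 2.07, 2.56 and 2.29. Of 23 cytochrome P450 genes 1 rose and 3 fell, where 9.99% of all probe sets were called. Next to CYP71B26 the clearest was CYP78A9, at 5.66 to 6.94 at 2 d and 8.76 to 9.49 at 3 h, which fell by 2.66 ± 0.301 (adjusted p = 4.83e-06). CYP71B35 fell by 1.34 ± 0.404 and CYP71B5 rose by 0.85 ± 0.235. Their calls were lost in 5 and 4 of the 7 runs that left out 1 array (adjusted p = 0.0832 to 0.117 and 0.0518 to 0.102).

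Genes of glutathione and ascorbate were lower at 2 d where they passed. Of 12 measured antioxidant genes, of 74 listed, 3 fell and none rose, with a median of −0.27. GR1, a glutathione reductase gene, read 9.08, 8.92, 9.28 and 9.55 at 2 d, against 11.85, 11.85 and 11.58 at 3 h, and fell by 2.55 ± 0.228 (adjusted p = 2.5e-07). GR, the gene of the second glutathione reductase, fell by 0.89 ± 0.231 and VTC4, of an enzyme of ascorbate synthesis, by 1.58 ± 0.337. The call of GR was lost without 2 d replicate 1 or 2 and without 3 h replicate 2 (adjusted p = 0.0515 to 0.0885). Of 14 glutathione S-transferase genes 2 fell and none rose, GSTU16 by 1.64 ± 0.284 and GSTU23 by 1.35 ± 0.395. The call of GSTU23 was lost without 2 d replicate 2 and without 3 h replicate 2 or 3 (adjusted p = 0.0885 to 0.164).

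Among the measured transcripts of the photosynthetic machinery no call was made, but few of the listed nuclear genes could be measured. None of 14 nuclear genes of light harvesting and the photosystems, of 80 listed, passed (changes from −1.09 to 0.43, median −0.17), none of 4 genes of the Calvin cycle and photorespiration, of 39 listed (−0.27 to −0.16), and none of 47 photosynthesis genes encoded in the plastid (−0.41 to 0.91, median 0.038). Of 10 measured genes of chlorophyll and tetrapyrrole synthesis 1 was called, near the 9.99% of all probe sets. This was HEMA2, for glutamyl-tRNA reductase, which rose by 0.83 ± 0.226. Its call was lost without 2 d replicate 3 and without 3 h replicate 2 or 3 (adjusted p = 0.0663 to 0.0832). The thioredoxin y2 gene ty2 rose by 1.26 ± 0.262 and was the 1 call among 6 chloroplast thioredoxin genes. None of 6 genes of chlorophyll breakdown and senescence, 17 of auxin response, 10 of jasmonate and wounding or 4 of heat shock passed.

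Calcium and defence genes gave calls in both directions. Of 16 measured genes of touch and calcium, of 163 listed, 2 rose and 1 fell, where 9.99% of all probe sets were called. CML42, a calmodulin-like gene, read 10.09, 10.31, 10.38 and 10.02 at 2 d, against 8.08, 8.32 and 8.08 at 3 h, and rose by 2.04 ± 0.21 (adjusted p = 1.79e-06). CML30 rose by 2.34 ± 0.426, and GLR3.3, for a glutamate receptor-like channel of wound signalling, fell by 1.18 ± 0.174 (adjusted p = 0.00011). Among 13 measured genes of salicylate and systemic defence, of 93 listed, 2 rose and 1 fell. PUB22, for a ubiquitin ligase that dampens immune signalling, rose by 2.47 ± 0.545 and WRKY22, a transcription factor gene, by 1.16 ± 0.297. CHI, a chitinase gene, read 9.61, 8.63, 7.69 and 7.91 at 2 d, against 12.80, 10.16 and 12.27 at 3 h, and fell by 3.29 ± 0.988. The call of CHI was kept only without 2 d replicate 1 or 3 h replicate 2 (otherwise adjusted p = 0.0647 to 0.156), and that of WRKY22 was lost without 2 d replicate 3 or 3 h replicate 2 (adjusted p = 0.0523 and 0.0972). With a pseudocount of 16 the change of PUB22 was 1.7. PUB26, another of 9 measured ubiquitin ligase genes of the U-box family, fell by 1.1 ± 0.324 on the main scale. The call of PUB26 held only in the run without 2 d replicate 3 (otherwise adjusted p = 0.055 to 0.0917).

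Of 29 measured serine carboxypeptidase-like genes 3 rose and 2 fell, where 9.99% of all probe sets were called. SCPL34 stood at 10.36, 10.24, 11.48 and 9.16 at 2 d, against 7.86, 7.85 and 8.27 at 3 h, and rose by 2.32 ± 0.49 (adjusted p = 0.0037). SCPL49 stood at 11.20, 11.20, 11.43 and 11.42 at 2 d, against 10.29, 10.21 and 9.95 at 3 h, while scpl46 fell by 1.34 ± 0.259 (adjusted p = 0.00162). The dim SCPL32 fell by 1.95 ± 0.561, or changed by −1.08 with a pseudocount of 16, and lost its call in 4 of 7 runs, those without 2 d replicate 2 or 4 or without 3 h replicate 2 or 3 (adjusted p = 0.0845 to 0.122). Beta-glucosidases release sugars from stored conjugates and from the wall. Of 20 measured genes 1 rose and 1 fell, near the share called among all probe sets (9.99%). BGLU16 rose by 1.49 ± 0.383 and BGLU47 fell by 1.51 ± 0.382, and both calls were lost without 3 h replicate 2 (adjusted p = 0.133 and 0.078). UGT74B1, a glucosyltransferase gene of glucosinolate synthesis, fell by 0.72 ± 0.17 and was the 1 call among 4 genes of that list, which was also lost without 3 h replicate 2 (adjusted p = 0.0626). SIR, for sulfite reductase, fell by 0.84 ± 0.233 among 5 genes of sulfate assimilation, a call lost without 2 d replicate 4 and without 3 h replicate 2 or 3 (adjusted p = 0.0757 to 0.105). CRT1b, for a calreticulin that folds proteins in the endoplasmic reticulum, stood at 10.75 to 10.90 at 2 d and at 12.26 to 12.52 at 3 h. It fell by 1.55 ± 0.44, the 1 call among 10 genes of folding, again near the share over all probe sets. That call was kept only without 2 d replicate 1 or 4 (otherwise adjusted p = 0.0508 to 0.0884). The SD of CRT1b was 0.0668 at 2 d and 0.133 at 3 h, and the model pools it with that of other groups. At 3 h the SD was 1.16 in the mutant in clean air and 1.28 in wild type in ozone. A limma fit of only the 7 arrays compared gave CRT1b an adjusted p of 0.00328. Among 16 genes encoded in the mitochondrion 1 fell, near the 5.43% of all probe sets that fell. This was ccb203, which was dim at 2.83 to 3.83 at 2 d and at 5.22 to 5.76 at 3 h. It changed by −2.0 ± 0.386, or by −1.20 with a pseudocount of 16. Of the measured members, none of 22 other plastid-encoded genes, 8 genes of cytokinin and ethylene, 5 of gibberellin and brassinosteroid, 7 of wax and fatty acid elongation or 8 of iron and copper passed.

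In the mutant, 1276 probe sets passed for the same time change in clean air (5.61%), 543 higher (2.39%) and 733 lower (3.22%). Of the wild-type calls, 434 that rose and 586 that fell were also called in the mutant in the same direction, which is 41.8% and 47.5% of the wild-type calls and 79.9% of the mutant calls in each direction, and none was called in the opposite direction. The sign was shared by 98.3% of the wild-type rises and 96.5% of the wild-type falls, against 72.8% of all probe sets. The median change of the wild-type rises was 1.26 in wild type, against 0.97 in the mutant, and that of the falls −1.26 and −0.96, but the probe sets were picked in wild type and the pick itself favours large wild-type values. No probe set passed for a difference of the time change between the genotypes in limma, and 585 had an unadjusted p under 0.05 (2.57%). The median SE of that difference was 0.463, so small differences were not detectable with these arrays. Larger ones did not pass either, such as −4.15 ± 1.22 for AT3G42500 and −1.98 ± 0.664 for AT2G23910, both dim in some groups. The lack of calls therefore does not show that the change was equal in the 2 genotypes. The mutant count was 806 without mutant 2 d replicate 3 and 797 without mutant 3 h replicate 3.

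COR27 averaged 11.66 ± 0.489 at 2 d and 4.77 ± 0.0747 at 3 h in the mutant (SD, n = 3 each), a rise of 6.89 ± 0.481. AT2G15020 fell by 7.27 ± 0.804 in the mutant, SWEET13 by 3.03 ± 0.428, GR1 by 1.91 ± 0.244 and HYH by 2.39 ± 0.481. ATG8E rose by 2.00 ± 0.388 and AKINBETA1 by 1.86 ± 0.4 in the mutant. Of the 12 largest rises 10 passed in the mutant too, and of the 12 largest falls 7 did. AT3G42500 was the one of the 24 with the opposite sign, at 0.31 ± 0.893 in the mutant, which did not pass.

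**Figure D3:**
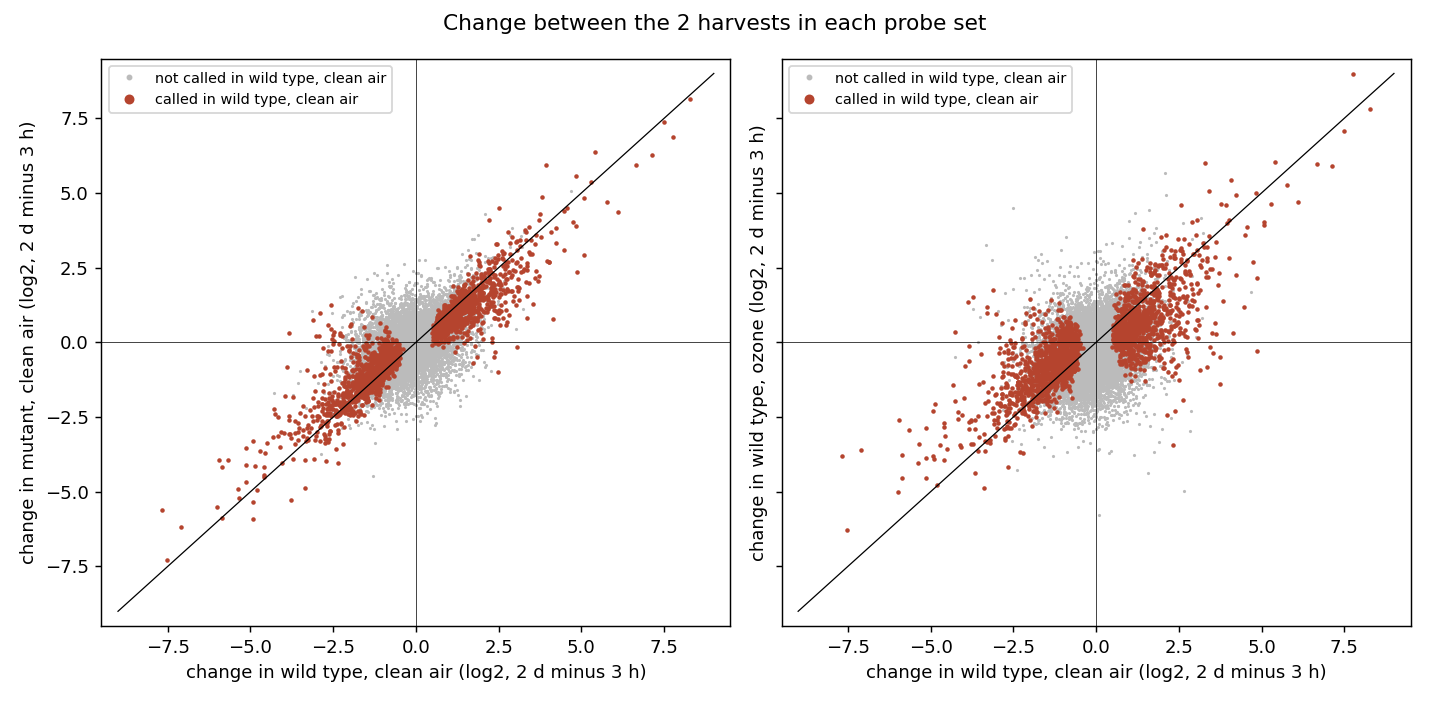
Change of every probe set between the harvests, as log2 of 2 d minus 3 h, with wild type in clean air on the horizontal axis of both panels and the mutant in clean air (left) or wild type in ozone (right) on the vertical axis. Red marks the 2273 probe sets called in wild type in clean air, grey the others, and the diagonal marks equal change. Of the red points, none was called in the opposite direction in the mutant, while in ozone 16 of the rises and 14 of the falls were.

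In ozone, 3255 probe sets passed for the time change of wild type (14.3%), 1180 higher (5.19%) and 2075 lower (9.12%). Of the clean-air calls, 365 that rose and 529 that fell were called in the same direction in ozone. These are 35.1% and 42.9% of the clean-air calls and 30.9% and 25.5% of the ozone calls. The sign was shared by 80.6% of the rises and 84.0% of the falls, against 64.2% of all probe sets. Opposite calls were made for 16 of the rises and 14 of the falls. In all 3 comparisons 224 probe sets rose and 387 fell. COR27 rose by 8.99 ± 0.45 in ozone, AT2G15020 fell by 6.28 ± 0.752, SWEET13 fell by 2.91 ± 0.4 and PWD rose by 2.43 ± 0.241. TMT1 rose by 0.87 ± 0.272 in ozone (adjusted p = 0.0365), a call kept only in the run without ozone 2 d replicate 3 (adjusted p up to 0.127 in the others). The ozone count was 2045 without ozone 2 d replicate 2 and 1676 without ozone 3 h replicate 1.

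The difference of the time change between clean air and ozone passed for 283 probe sets (1.24%), 130 above 0 (0.572%) and 153 below (0.673%). Of these, 144 were called in clean air and 162 in ozone, and for 257 the changes had opposite signs. CML42 averaged 10.20 ± 0.174 at 2 d and 8.16 ± 0.136 at 3 h in clean air, and 9.27 ± 0.241 at 2 d and 9.52 ± 0.294 at 3 h in ozone (SD, n = 4 and 3). Its rise in clean air was 2.04 and its change in ozone −0.25, a difference of 2.29 ± 0.297 (adjusted p = 0.00138). AT3G23550, among the 12 largest rises in clean air, averaged 10.92 ± 1.29 at 2 d and 7.19 ± 0.517 at 3 h there, and 9.32 ± 1.23 at 2 d and 10.72 ± 0.575 at 3 h in ozone, a difference of 5.13 ± 1.19 (adjusted p = 0.0399). SCPL49, for a serine carboxypeptidase, rose in both, by 1.16 ± 0.161 in clean air and by 2.32 ± 0.161 in ozone, a difference of −1.16 ± 0.227 (adjusted p = 0.023). ALN rose by 1.18 in clean air against a change of −0.77 in ozone that did not pass, a difference of 1.95 ± 0.447 (adjusted p = 0.0392). With each of the 14 arrays left out in turn, the difference of CML42 kept its call throughout, and that of SCPL49 lost it without clean-air 3 h replicate 1 or ozone 2 d replicate 2 (adjusted p up to 0.0716). The differences of ALN and AT3G23550 lost their calls in 10 and 12 of the 14 runs, with adjusted p up to 0.123 and 0.113.

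For 3 of the 4 genes of largest difference the time change passed in ozone or in neither comparison, and not in clean air. AT1G26380 changed by 1.90 ± 0.893 in clean air, which did not pass, and fell by 3.34 ± 0.893 in ozone. AT3G12910 changed by 1.16 ± 0.754 in clean air and fell by 3.77 ± 0.754 in ozone. AT4G17240 changed by 2.84 ± 1.01 in clean air and by −2.96 ± 1.01 in ozone, and neither passed. With a pseudocount of 16 its clean-air change was 1.7 and passed (adjusted p = 0.0466). The differences of AT1G26380, AT3G12910 and AT4G17240 lost their calls in 12, 7 and 12 of the 14 runs (adjusted p up to 0.0944, 0.113 and 0.15), and the fall of AT1G26380 in ozone lost its call without ozone 3 h replicate 1 (adjusted p = 0.0612). The difference count rests on single arrays. It was 23 without clean-air 3 h replicate 1, 25 without ozone 2 d replicate 2 and 692 without ozone 2 d replicate 4.

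GI did not pass in clean air but rose by 1.64 ± 0.332 in ozone, and the difference between the 2 airs did not pass (−1.48 ± 0.469, adjusted p = 0.121). HYH, UGT78D2 and CYP71B26 fell in clean air and did not pass in ozone, at −1.02 ± 0.45, −0.73 ± 0.353 and −1.42 ± 0.566. Their differences did not pass either, with adjusted p = 0.201, 0.175 and 0.0758.

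**Figure D4:**
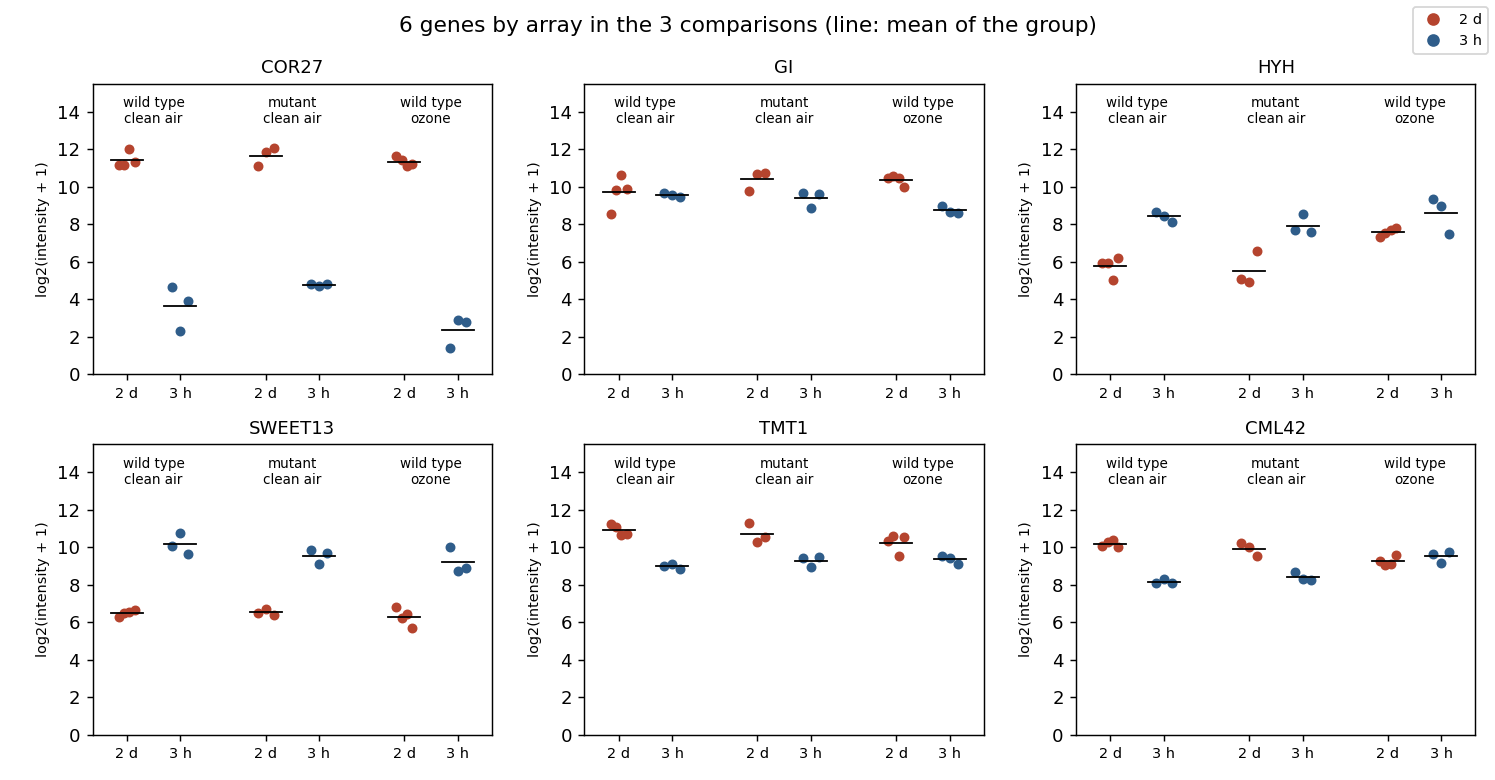
Values of single arrays, as log2(intensity + 1), for 6 genes in the 3 comparisons, with 2 d in red to the left of 3 h in blue and a line at the mean of each group. COR27, HYH, SWEET13 and TMT1 differ in the same direction in each comparison, HYH in ozone without passing the test and TMT1 in ozone with a call lost in 6 of 7 runs that left out 1 array, GI overlaps in wild type in clean air, and CML42 is higher at 2 d in clean air in both genotypes but not in ozone.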

How the data were processed

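The authors deposited 1 linear intensity per probe set and array. The submitters' processing notes name the tools Affymetrix Expression Console and RMA, without versions. These intensity values are linear, whereas RMA usually gives log2 values, and their scaling is not stated. No array was dropped and no pair was identical.

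The analysis used log2(intensity + 1), without another normalization or a filter. limma 3.58.1 in R 4.3.3 fitted 8 group means to all 27 arrays, with 5 contrasts, 2-sided p-values and Benjamini-Hochberg adjustment within each (19 residual and 2.53 prior degrees of freedom). For arrays, their number limits precision. Simulated data of 22746 probe sets for the clean-air wild-type comparison held 50 changed probe sets of each size. Of these, 44% of changes of 1 log2, 96% of 2 and of 3 and 94% of 4 were recovered. There were 13 false calls among unchanged probe sets. Changes were given only to probe sets with a mean log2 of at least 6, so these rates are not to be carried over to dim probe sets. Noise was drawn as normal, and a smaller share of probe sets was changed than was called in the data, so the rates may differ there.

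Genes were named by the platform's annotation and the TAIR10.1 gene table: 13513 probe sets had 1 gene, 503 several and 8730 were not listed there. GPA1 and AGB1 are not analysed here. The gene with several probe sets was represented in lists by 1. Lists took in only probe sets with 1 gene, so many listed genes were not measured.

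The members and lists were chosen with earlier results of these data known, and 17 lists were added after seeing the data. Named are up to 12 rises and 12 falls with the largest change among called probe sets of 1 gene whose arrays do not overlap, up to 4 called members per list, every measured clock gene, and the 4 largest differences by ozone; other list members were named after their values were seen. Alternatives were a pseudocount of 16, quantile normalization, median centring, a filter at a mean log2 of 6, only the arrays compared, array weights, a replicate block and each array left out.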

Additional observations from a re-analysis of the deposited data

Results flagged for a closer look

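Of 99 named genes, 8 had 1 of the 4 clean-air 2 d arrays far from the other 3 by Dixon's criterion, which chance gives in about 1 of 20 groups. Replicate 3 stood apart for COR27 (11.99, with the next at 11.29), AT3G46370 (7.49, next 2.7) and HTB2 (9.07, next 10.16). Replicate 1 stood apart for AT1G17665 (8.72, next 9.07) and ccb203 (2.83, next 3.73), replicate 4 for AT1G13650 (3.57, next 6.08) and AT2G22200 (6.56, next 3.15), and replicate 2 for GSTU23 (3.49, next 5.46).

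For 8 named genes the time change differed between clean air and ozone in limma. The difference, clean air minus ozone, was 2.29 for CML42, 5.13 for AT3G23550, 1.95 for ALN, −1.16 for SCPL49, 5.80 for AT4G17240, 5.24 for AT1G26380 and 4.93 for AT3G12910. The mitochondrial gene ccb203 had −2.89, with a fall of 2.00 ± 0.386 in clean air and a change of 0.90 ± 0.386 in ozone that did not pass, at levels of 2.83 to 5.76 on the clean-air arrays. Their adjusted p lay between 0.00138 and 0.047. No named gene passed for a difference between the genotypes.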

How the results depend on the processing

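Array weights moved the count of calls to 3763 for wild type in clean air (1829 higher and 1934 lower), to 2248 for the mutant, to 7109 for wild type in ozone and to 2067 for the difference by ozone. With only the arrays compared, and so fewer degrees of freedom, 692 probe sets were higher in wild type in clean air, 273 were called in the mutant, 568 in ozone and 13 for the difference by ozone, and the filter on low values gave 516 for that difference. The fit of only the arrays compared kept 57.0% of the main calls of wild type in clean air. Leaving out 1 array at a time gave 1370 to 1959 calls in wild type in clean air, 628 to 942 of them higher and 742 to 1068 lower. It gave 797 to 1117 in the mutant, 1676 to 3293 in ozone, 23 to 692 for the difference by ozone, and 0 to 1 for the difference between genotypes. The other alternatives kept these counts within 1.5 times. No called named gene reversed its direction under any alternative, while 24 lost their call with only the arrays compared and 59 of 92 kept it whichever of the 7 arrays was left out. Replicate numbers did not pair the arrays of wild type in clean air (correlations of same-numbered deviations −0.0112, −0.0106 and 0.0357), and with a replicate block 2150 probe sets were called and 8 named genes lost their call. Cause was not tested for any of these shifts. Centring arrays on their medians turned the share of higher calls from 45.7% to 53.3%. The search of promoters for motifs was not run, since no genome was at hand.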
